A study of Mus musculus with 10 samples.

Results

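The genotype by peritoneal dialysis (PD) fluid interaction was measured as the log2 change with PD fluid in Mr1-/- mice minus the log2 change with PD fluid in Mr1+/+ mice. All 10 libraries of peritoneal tissue entered it, as it takes every column of the count table in its 4 groups, and 15385 of 21877 gene symbols had enough counts to be tested. A value of 0 stands for the same change in both genotypes, a negative value for a change that is lower (less positive or more negative) in Mr1-/-, and a positive value for one that is higher.

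All mice were male C57BL/6, and all were given intraperitoneal injections for 6 weeks. The groups were Mr1+/+ with PBS (3 libraries), Mr1+/+ with 4.25% PD fluid (3 libraries), Mr1-/- with PBS (2 libraries) and Mr1-/- with 4.25% PD fluid (2 libraries). The sources used here give no ages, do not say how the Mr1-/- line was made and do not tie libraries to animals. Any p-value therefore covers only the spread among these libraries, and that spread may be technical. PD fluid is the glucose-rich, hypertonic solution that is run into the abdomen in peritoneal dialysis.

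MR1 is a class I-like molecule that presents vitamin B metabolites of microbes to mucosal-associated invariant T (MAIT) cells, and mice without it lack MAIT cells. The peritoneum is a sheet of mesothelium over connective tissue with vessels and fibroblasts, and the fat attached to it holds lymphoid clusters rich in B cells. Long exposure to PD fluid is known to thicken this connective tissue with collagen, to increase its vessels and to strip mesothelium.

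The libraries held 14145635 to 16335799 counts. On a chi-square per gene, where 1 is Poisson counting noise, Mr1+/+ PBS libraries 1 and 2 stood at 2.23 and Mr1-/- PD fluid libraries 1 and 2 at 1.74, while the other pairs within groups ran from 18.6 to 118. Each of these near-identical pairs was summed to make 1 sample, which leaves 2 Mr1+/+ PBS, 3 Mr1+/+ PD fluid, 2 Mr1-/- PBS and 1 Mr1-/- PD fluid samples. The single Mr1-/- PD fluid sample has no spread of its own and takes it from the other groups. Mr1+/+ PBS library 3 stood apart in genes of other organs: 20 intestinal epithelial genes summed to 5670.2 CPM (counts scaled to a common library size) there and to 17.3 to 35.3 CPM in the other 9 libraries. A list of 19 pancreatic acinar genes summed to 37029 CPM in that library, 696 and 741 CPM in the other Mr1+/+ PBS libraries, 216 to 5722 CPM in Mr1+/+ PD fluid, 403 and 962 CPM in Mr1-/- PBS and 7429.9 and 7598 CPM in Mr1-/- PD fluid. Of 20 liver genes, 5 to 11 had 0 counts in each Mr1+/+ library and none had 0 counts in any Mr1-/- library; Alb was at 0.188 to 2.18 CPM in Mr1+/+ and at 64.4 to 109 CPM in Mr1-/-.

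Mr1 itself (ENSMUSG00000026471.14; mm10 chromosome 1, 155127277 to 155146814, minus strand) was at 27.7 ± 4.66 CPM in the Mr1+/+ samples (SD, n = 5) and at 2.25 ± 0.255 CPM in the Mr1-/- samples (SD, n = 3). The log2 difference was -3.55, and the exact two-sided permutation p of 0.0179 is the smallest that the 56 splits can give. Raw counts per library, before any pair was summed, were 324 to 524 in Mr1+/+ and 29 to 39 in Mr1-/-. Its own interaction was -0.35 with a 95% confidence interval of -1.07 to 0.37.

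No gene passed the test of the interaction at an adjusted p under 0.05 in edgeR's quasi-likelihood test, where the smallest adjusted p was 0.266. The unadjusted p was under 0.05 for 2037 genes, 13.2% of those tested, of which 936 had a positive interaction (6.08%) and 1101 a negative one (7.16%). Over all tested genes 50.8% had a value above 0 and 49.2% a value below 0. DESeq2 on the same 8 samples called 488 genes, 170 positive and 318 negative, and edgeR on all 10 libraries as separate samples called 1490, of which 646 were positive and 844 negative. With the 10 libraries, each near-identical pair counts as 2 samples, so the spread is understated if a pair is 1 sample. In simulated counts of 15138 genes, the 8-sample fit recovered 3% of genes with a 2-fold interaction and 52% of those with a 4-fold interaction. For each size 100 genes were changed, drawn only from genes with higher counts. Recovery depends on counts and on how many genes change, so these shares hold for that setting only.

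The 2 changes that make up the interaction differed in how many genes they moved. In Mr1+/+ mice 2286 genes changed (14.9%): 1306 rose with PD fluid (8.49% of those tested) and 980 fell (6.37%). In Mr1-/- mice edgeR called none at the same threshold, with 231 genes (1.5%) at an unadjusted p under 0.05. DESeq2 called 11 there, and edgeR on the 10 libraries called 2, Fbln1 and Angptl8, both higher with PD fluid. The comparison within Mr1-/- rests on 2 samples against 1 and that within Mr1+/+ on 3 against 2, so these counts are not a measure of unequal effects. The Mr1+/+ count was 0 without PD fluid library 3 and 339 without PD fluid library 2.

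Genes with a negative interaction at unadjusted p under 0.05 were mostly genes with higher values under PD fluid in Mr1+/+ and little difference in Mr1-/-. The median change of the 1101 was 1.06 in Mr1+/+ and -0.10 in Mr1-/-, on the log2 scale. Those with a positive interaction mirrored this, with medians of -0.85 in Mr1+/+ and 0.10 in Mr1-/- over 936 genes. The absolute change was larger in Mr1+/+ for 94.6% of the first and 96.7% of the second, against 75.5% of all tested genes. Both sets were chosen on the interaction, so these medians describe the choice and are not a test. Mr1-/- PBS lay between the 2 Mr1+/+ groups for 83.9% of the negative and 83.1% of the positive genes, against 41.4% of all tested genes. The median log2 difference between the genotypes under PBS was 0.32 for the negative and -0.25 for the positive genes, against -0.02 over all. That difference is a term of the interaction, so choosing genes by the interaction moves it in these directions, and nothing about the Mr1-/- baseline is read from it.

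Across the 15385 tested genes the changes with PD fluid in the 2 genotypes had a Pearson correlation of -0.066 and a Spearman correlation of 0.088, given as a description since genes are not independent replicates. Very large fitted folds of genes with 0 counts in a group, such as the intestinal genes below, are among these changes. Their weight in the Pearson value was not tested, and nothing is read from its sign. The 2 changes share no library. PD fluid and PBS libraries did not overlap in both genotypes and differed in opposite directions for 1363 genes (8.86%), and in the same direction for 1667 genes (10.8%). All 10 libraries were compared, so in Mr1-/- the near-identical PD fluid pair, 1 sample in the fit, is set against 2 PBS libraries. A lack of overlap in Mr1-/-, here and for the genes below, is therefore a weak description and not a test.

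**Figure D1:**
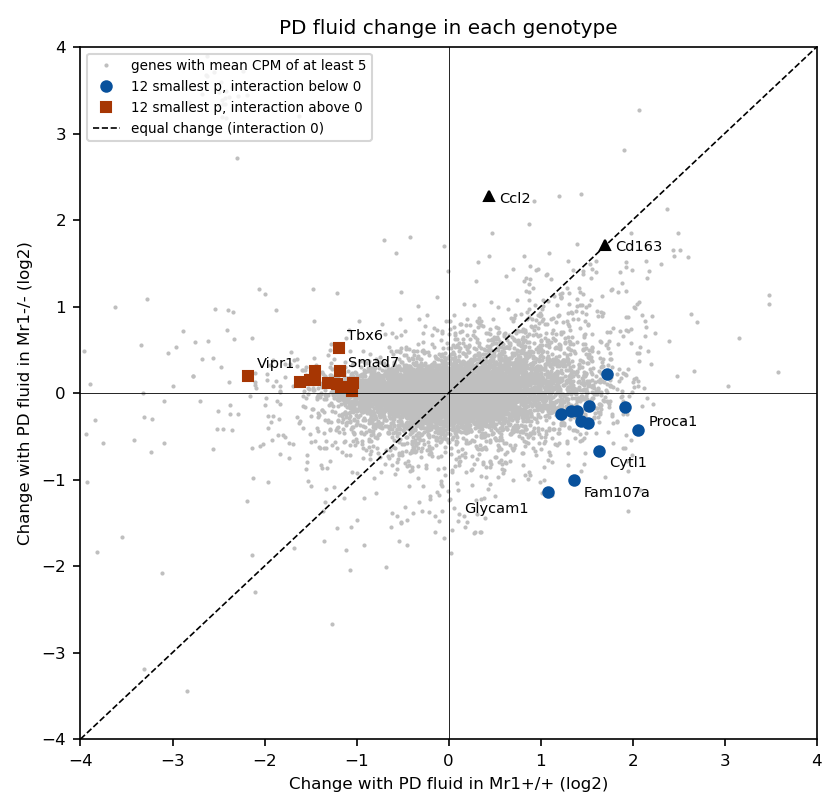
Change with PD fluid in Mr1+/+ (x axis, log2) against the change in Mr1-/- (y axis, log2); each grey point is a gene with a mean of at least 5 CPM, and the dashed line marks equal change. The 12 genes with the smallest interaction p below 0 (blue circles) and above 0 (orange squares) lie near the horizontal line of no change in Mr1-/-, except Cytl1, Glycam1 and Fam107a, which lie below it; Cd163 lies on the dashed line and Ccl2 well above it; genes beyond the axes are not drawn.

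Cytl1, which encodes a small secreted cytokine-like protein, had the smallest interaction p among genes with a mean of at least 5 CPM (mm10 chromosome 5, 37735519 to 37739820, plus strand). It was at 8.40, 7.75 and 7.67 CPM in Mr1+/+ PBS, 25.0, 23.4 and 25.1 CPM in Mr1+/+ PD fluid, 16.3 and 15.2 CPM in Mr1-/- PBS and 8.57 and 11.3 CPM in Mr1-/- PD fluid. The PD fluid libraries were the higher ones in Mr1+/+ and the lower ones in Mr1-/-, with no overlap in either genotype. The interaction was -2.30 ± 0.29 on the log2 scale (SE), with an unadjusted p of 3.78e-05 and an edgeR adjusted p of 0.266.

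Glycam1, a mucin-like glycoprotein of high endothelial venules that binds L-selectin on lymphocytes, crossed over in the same way (chromosome 15, 103562759 to 103565081, minus strand). Its levels were 37.6, 38.7 and 41.0 CPM in Mr1+/+ PBS, 77.4, 76.2 and 97.7 CPM in Mr1+/+ PD fluid, 86.5 and 117 CPM in Mr1-/- PBS and 44.6 and 47.2 CPM in Mr1-/- PD fluid. It rose in Mr1+/+ by 1.08 (adjusted p = 0.015, edgeR), and the interaction was -2.23 ± 0.32 (SE). The Glycam1 change in Mr1-/- was -1.15, with an adjusted p of 1 in edgeR and of 0.0328 in DESeq2, which called it. Fam107a, an actin-binding protein induced by stress hormones, had the same shape, at 5.99 to 8.16 CPM in Mr1+/+ PBS, 17.9 to 19.4 CPM in Mr1+/+ PD fluid, 9.17 and 14.3 CPM in Mr1-/- PBS and 5.71 and 5.95 CPM in Mr1-/- PD fluid.

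The other genes of the 12 with the smallest p below 0 rose in Mr1+/+ and had changes of -0.43 to 0.22 in Mr1-/-. Gpx3, the secreted glutathione peroxidase, was at 251, 245 and 255 CPM in Mr1+/+ PBS, 600.2, 627 and 670.4 CPM in Mr1+/+ PD fluid, 280.0 and 299 CPM in Mr1-/- PBS and 251 and 249 CPM in Mr1-/- PD fluid. Only the Mr1+/+ PD fluid libraries were high, and the interaction was -1.54 ± 0.24 (SE). Car5b, a mitochondrial carbonic anhydrase, was at 66.1 to 75.9 CPM in Mr1+/+ PBS, 210.3 to 248 CPM in Mr1+/+ PD fluid, 91.8 and 96.7 CPM in Mr1-/- PBS and 107 and 111 CPM in Mr1-/- PD fluid. F3, which encodes tissue factor, the starter of blood clotting, had an interaction of -1.61 ± 0.26 (SE). Mrap, the accessory protein of the ACTH receptor that fat cells express, had one of -2.08 and Bckdhb, of branched-chain amino acid breakdown, one of -1.76. Others were Proca1 at -2.48, Phlda3 (a p53 target) at -1.67 and Tmem38b (a channel of the endoplasmic reticulum) at -1.47.

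On the positive side, Vipr1, a receptor of vasoactive intestinal peptide, had the smallest p (chromosome 9, 121642716 to 121672954, plus strand). It was at 79.1, 72.9 and 126 CPM in Mr1+/+ PBS, 26.0, 21.7 and 19.4 CPM in Mr1+/+ PD fluid, 52.7 and 42.9 CPM in Mr1-/- PBS and 52.2 and 57.5 CPM in Mr1-/- PD fluid. Vipr1 fell in Mr1+/+ by 2.18 (adjusted p = 0.0124, edgeR), and its interaction was 2.38 ± 0.38 (SE). Smad7, the inhibitory SMAD that dampens TGF-beta signalling, was at 112, 103 and 92.5 CPM in Mr1+/+ PBS, 46.9, 47.4 and 38.7 CPM in Mr1+/+ PD fluid, 71.4 and 73.6 CPM in Mr1-/- PBS and 85.6 and 87.2 CPM in Mr1-/- PD fluid. The lowest 3 libraries were those of Mr1+/+ PD fluid, and the PD fluid libraries of Mr1-/- lay above its PBS libraries. The interaction was 1.44 ± 0.24 (SE), with an edgeR adjusted p of 0.266.

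Pax5, the transcription factor that keeps B cell identity, was also among the 12 genes with the smallest p above 0. It was at 439, 444 and 293 CPM in Mr1+/+ PBS, 135, 131 and 95.4 CPM in Mr1+/+ PD fluid, 347 and 314 CPM in Mr1-/- PBS and 356 and 365 CPM in Mr1-/- PD fluid. Its interaction was 1.74 ± 0.36 (SE). Others were Card6 (1.71), F2rl1, the protease-activated receptor 2 (1.60), Sfn (1.25), Tbx6 (1.71), Arid3b (1.32), Nuak2 (1.07), Cacna1i, a calcium channel (1.66), and Cenpa, the centromeric histone (1.16). All 12 fell in Mr1+/+, with changes of 0.03 to 0.52 in Mr1-/-. In bulk tissue, fewer cells of a type and less RNA per cell cannot be told apart.

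**Figure D2:**
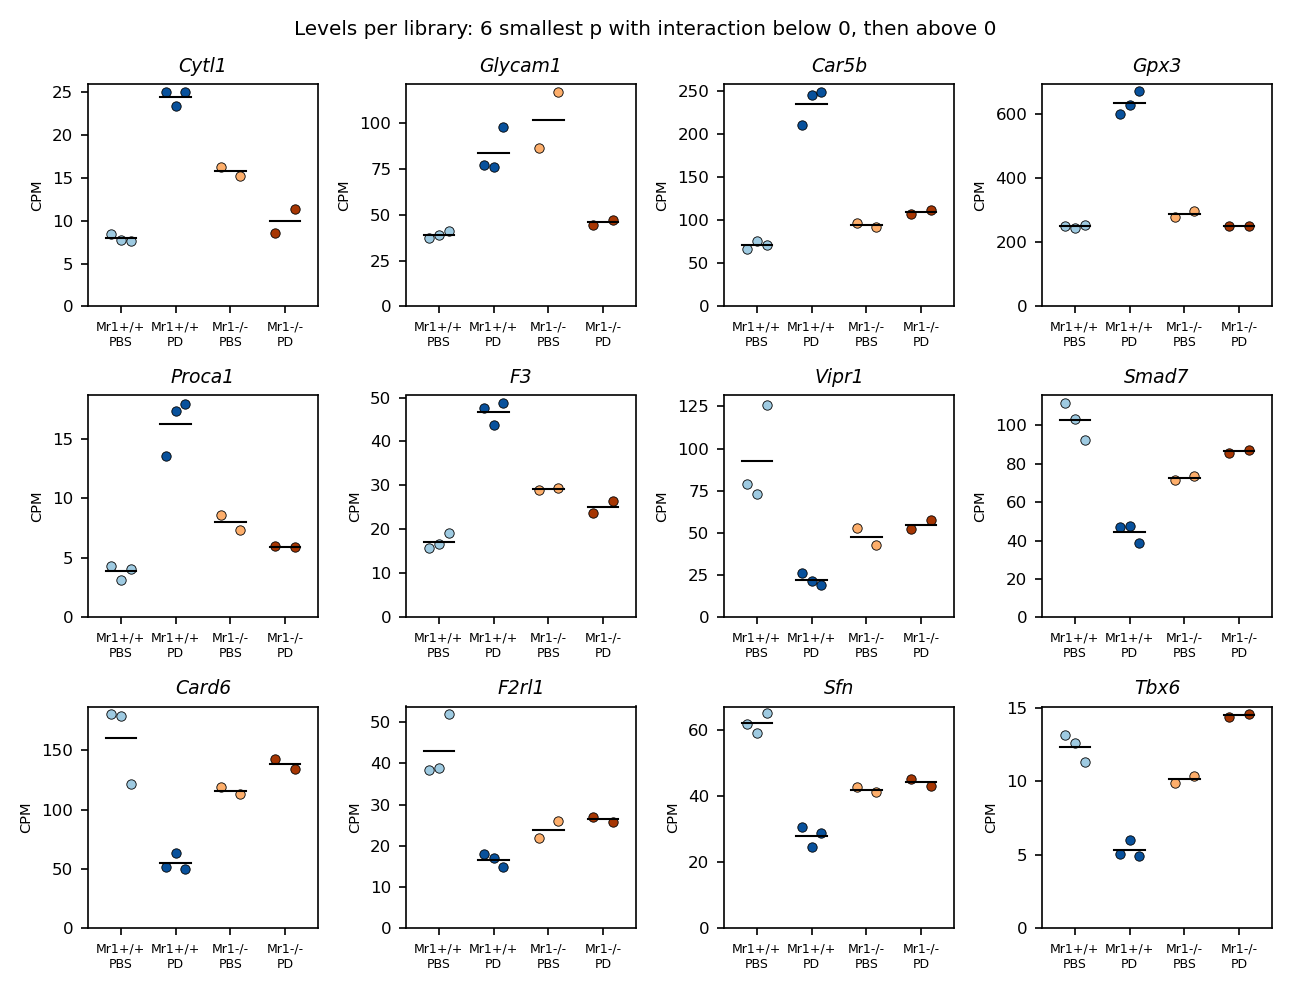
Level in each library (y axis, CPM) by group (x axis) for the 6 genes with the smallest interaction p below 0 (Cytl1 to F3) and the 6 above 0 (Vipr1 to Tbx6); points are libraries and bars are group means over libraries. In every panel the Mr1+/+ PD fluid libraries do not overlap the Mr1+/+ PBS libraries, and the Mr1-/- PBS libraries lie on the Mr1+/+ PD fluid side of the Mr1+/+ PBS libraries.

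Genes of fat cells lay on the negative side of the interaction. All 21 adipocyte markers had a negative value, with 16 at an unadjusted p under 0.05 (76.2%, against 7.16% of all genes on that side), and none passed adjustment. Their median interaction was -1.52, against 0.01 over all genes, from a median change of 1.58 in Mr1+/+ and 0.05 in Mr1-/-. In Mr1+/+, 17 of the 21 rose, against 8.49% of all genes. The summed level of the list was 7606 to 9752 CPM in Mr1+/+ PBS, 22697 to 32164 CPM in Mr1+/+ PD fluid, 10269 and 15311 CPM in Mr1-/- PBS and 13052 and 13139.8 CPM in Mr1-/- PD fluid, so the Mr1-/- PD fluid libraries lay between the PBS libraries of their genotype. When single libraries were left out the count at unadjusted p under 0.05 was 13 to 19, the highest of these without Mr1+/+ PBS library 3.

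Adipoq, the fat cell hormone adiponectin, was at 367, 354 and 479 CPM in Mr1+/+ PBS, 1182, 1423 and 1649.8 CPM in Mr1+/+ PD fluid, 646 and 406 CPM in Mr1-/- PBS and 568 and 555 CPM in Mr1-/- PD fluid. The interaction was -1.65 ± 0.43 (SE), with an edgeR adjusted p of 0.272. Cfd, adipsin, a complement protease secreted by fat cells, was at 1190.1 to 1236 CPM in Mr1+/+ PBS, 3374 to 5883 CPM in Mr1+/+ PD fluid, 2078 and 1535 CPM in Mr1-/- PBS and 1505 and 1551 CPM in Mr1-/- PD fluid, an interaction of -2.13 ± 0.44 (SE). Slc2a4, the insulin-responsive glucose transporter, had one of -1.52, and Adrb3, the beta-3 adrenergic receptor, one of -1.87. Each of these 4 rose in Mr1+/+.

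Enzymes of lipid metabolism had the same sign. Of 26 lipid synthesis genes 25 had a negative interaction (49.2% of all genes did), with a median of -1.01. Of these, 12 were at an unadjusted p under 0.05, against 7.16% of all genes on that side. That count was 16 without Mr1+/+ PD fluid library 1, 9 without library 2 and 10 without library 3 of that group. The median was -0.68 without Mr1-/- PBS library 2. Dgat2, which makes triglyceride, was at 223 to 230.0 CPM in Mr1+/+ PBS, 663 to 701 CPM in Mr1+/+ PD fluid, 292 and 362 CPM in Mr1-/- PBS and 397 and 401 CPM in Mr1-/- PD fluid. Its PD fluid libraries were the higher ones in both genotypes, and the interaction of -1.28 ± 0.26 (SE) reflects changes of 1.57 in Mr1+/+ and 0.29 in Mr1-/-. Insig1, a brake on sterol synthesis, had an interaction of -1.78, and Agpat2, an acyltransferase of the triglyceride pathway, one of -1.66. Of 25 fatty acid oxidation genes tested, 22 had a negative interaction (13 at an unadjusted p under 0.05, median -0.84), among them Echs1 at -1.32 and Decr1 at -1.36. Here the count was 16 without Mr1+/+ PD fluid library 1 and 10 without library 3 of that group. The median was -1.17 without Mr1+/+ PBS library 3 and -0.73 without Mr1+/+ PD fluid library 3. Cpt1a, the gatekeeper of mitochondrial fatty acid import, was the exception at unadjusted p under 0.05, with 0.98. It was at 262, 267 and 315 CPM in Mr1+/+ PBS, 201, 239 and 192 CPM in Mr1+/+ PD fluid, 163 and 171 CPM in Mr1-/- PBS and 234 and 242 CPM in Mr1-/- PD fluid.

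**Figure D3:**
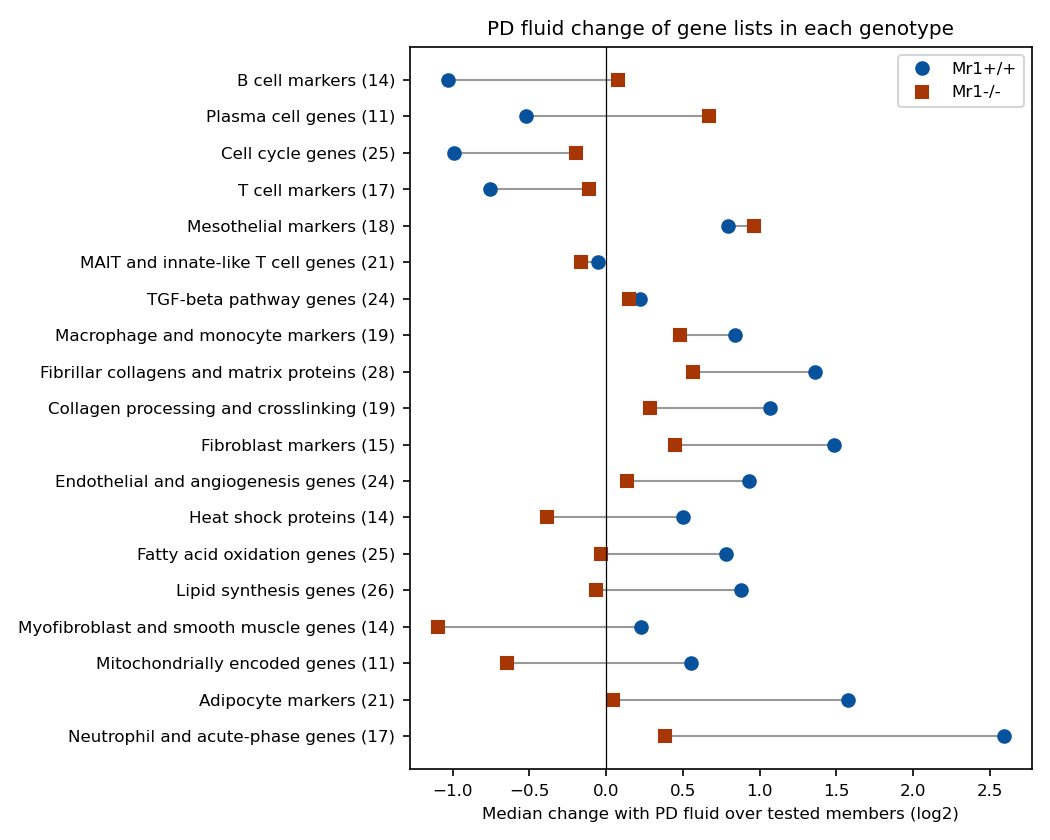
Median change with PD fluid (x axis, log2) over the tested members of 19 gene lists (y axis, number of genes in brackets), in Mr1+/+ (blue circles) and Mr1-/- (orange squares); the grey line joins the 2 medians. Adipocyte markers sit at 1.58 and 0.05 and B cell markers at -1.03 and 0.08, while TGF-beta pathway genes sit at 0.22 and 0.15 and MAIT and innate-like T cell genes at -0.05 and -0.17.

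Most collagen and matrix genes had positive changes with PD fluid in both genotypes. Of 28 fibrillar collagen and matrix genes, 25 had a positive change in Mr1+/+ (46.1% of all genes did). Of these 19 rose, against 8.49% of all genes. In Mr1-/- 26 had a positive change (46.7% of all genes did), none of which passed. The medians were 1.36 in Mr1+/+ and 0.56 in Mr1-/-. The interaction was negative for 25 of the 28, with 5 at an unadjusted p under 0.05 (17.9%) and a median of -0.55. Without a single library the count was 3 (without Mr1+/+ PD fluid library 3, or without Mr1-/- PBS library 1) to 11 (without Mr1+/+ PD fluid library 1).

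Col1a1, which encodes a chain of type I collagen, was at 205, 212 and 229 CPM in Mr1+/+ PBS, 415, 624 and 602 CPM in Mr1+/+ PD fluid, 217 and 164 CPM in Mr1-/- PBS and 309.9 and 319 CPM in Mr1-/- PD fluid. PD fluid libraries were higher without overlap in both genotypes, and the interaction of -0.59 had a 95% confidence interval of -1.42 to 0.24. Col3a1, the type III collagen chain, was at 359 to 491 CPM in Mr1+/+ PBS, 1091 to 2092 CPM in Mr1+/+ PD fluid, 461 and 251 CPM in Mr1-/- PBS and 701 and 704 CPM in Mr1-/- PD fluid. Its interaction was -1.04 with an interval of -2.48 to 0.40. Sparc, a collagen-binding matrix protein, had an interaction of -1.41 ± 0.48 (SE), and Col5a2 one of -0.89. Fn1, fibronectin, had an interaction of -0.20 with an interval of -1.50 to 1.09.

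Of 19 genes that process and crosslink collagen, 14 rose in Mr1+/+ (8.49% of all genes did). The interaction was negative for 18 of the 19, 6 at an unadjusted p under 0.05, with a median of -0.56. The count at unadjusted p under 0.05 was 12 without Mr1+/+ PD fluid library 1 and 4 without library 2 or 3 of that group. Serpinh1, the collagen chaperone HSP47, was at 114 to 123 CPM in Mr1+/+ PBS, 218, 423 and 430.2 CPM in Mr1+/+ PD fluid, 138 and 149 CPM in Mr1-/- PBS and 165 and 164 CPM in Mr1-/- PD fluid. Its interaction was -1.40 ± 0.48 (SE). P4ha2, a collagen prolyl hydroxylase, had one of -1.08, and Plod2, a lysyl hydroxylase, one of -1.62. Fibroblast markers were negative for 12 of 15 (5 at an unadjusted p under 0.05, median -0.64). Of the 15, 9 rose in Mr1+/+, against 8.49% of all genes. Gsn, the actin-severing protein gelsolin, was at 1852 to 2367 CPM in Mr1+/+ PBS, 5877 to 6159 CPM in Mr1+/+ PD fluid, 2808 and 1811 CPM in Mr1-/- PBS and 2701 and 2703 CPM in Mr1-/- PD fluid. The fibroblast count was 1 without Mr1-/- PBS library 1, where the median was -0.36, 2 without Mr1+/+ PD fluid library 2 or 3 and 8 without Mr1-/- PBS library 2.

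TGF-beta pathway genes did not share a direction: 8 of 24 were positive and 16 negative, with 2 and 3 at an unadjusted p under 0.05 and a median of -0.13. The ligand Tgfb1 was at 0.45 with an interval of -0.26 to 1.16. Among regulators, Smad7 was at 1.44 and Tgif1, a repressor of SMAD-driven transcription, at 0.98. Ltbp3, which anchors latent TGF-beta in the matrix, was at -0.96 ± 0.24 (SE). Ccn2, connective tissue growth factor, a target of the pathway, was at 12.7, 15.4 and 21.5 CPM in Mr1+/+ PBS, 30.2, 58.0 and 71.6 CPM in Mr1+/+ PD fluid, 19.6 and 23.3 CPM in Mr1-/- PBS and 18.3 and 16.7 CPM in Mr1-/- PD fluid. It rose in Mr1+/+ by 1.58 (adjusted p = 0.0369, edgeR), and its interaction was -1.87 with an interval of -3.37 to -0.38.

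Myofibroblast and smooth muscle genes gave values that rest on 1 library. Of 14 genes 13 had a negative interaction, 3 at an unadjusted p under 0.05, with a median of -1.23. Acta2, smooth muscle actin, was at 434 and 1175 CPM in the 2 Mr1-/- PBS libraries, against 398 and 408 CPM in Mr1-/- PD fluid, 449 to 487 CPM in Mr1+/+ PBS and 673 to 987 CPM in Mr1+/+ PD fluid. The summed list was at 1855 and 7397 CPM in Mr1-/- PBS libraries 1 and 2 and at 2098 to 3128 CPM in the other 8 libraries. Without Mr1-/- PBS library 2 the list had 7 positive and 7 negative values and a median of -0.09, and without Mr1-/- PBS library 1 the median was -1.92 and 11 were at an unadjusted p under 0.05. That count was 1 without Mr1+/+ PBS library 3 or without Mr1+/+ PD fluid library 2 or 3.

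Vessel genes were negative for 20 of 24, with 9 at an unadjusted p under 0.05 (7.16% of all genes were on that side) and a median of -0.80. That count was 13 without Mr1+/+ PD fluid library 1 and 8 without library 2 or 3 of that group. The median was -0.55 without Mr1-/- PBS library 1 and -1.04 without Mr1+/+ PBS library 3. Of the 24 genes, 14 rose in Mr1+/+, against 8.49% of all genes. Esam, an endothelial adhesion molecule, was at 42.1, 39.3 and 58.7 CPM in Mr1+/+ PBS, 102, 142 and 153 CPM in Mr1+/+ PD fluid, 71.5 and 57.9 CPM in Mr1-/- PBS and 60.5 and 64.0 CPM in Mr1-/- PD fluid. Its interaction was -1.46 ± 0.39 (SE). Emcn, a sialomucin of capillaries and veins, was at -1.75 and the growth factor Vegfb at -1.25, while Vegfa was at -0.80 with an interval of -1.69 to 0.08. A list of 8 erythroid genes, a sign of blood in the tissue, summed to 17.6 to 35.9 CPM in Mr1+/+ PBS, 86.6 to 243 CPM in Mr1+/+ PD fluid, 14.4 and 21.6 CPM in Mr1-/- PBS and 51.7 and 53.6 CPM in Mr1-/- PD fluid, and its part in these values was not tested.

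Mesothelial markers had no common direction, with 11 of 18 positive, 1 on each side at an unadjusted p under 0.05 and a median of 0.48. Leaving out single libraries moved that median between -0.16 without Mr1-/- PBS library 2 and 1.29 without Mr1-/- PBS library 1. Wt1, a mesothelial transcription factor, was at 11.2, 12.5 and 6.61 CPM in Mr1+/+ PBS, 41.6, 21.7 and 19.1 CPM in Mr1+/+ PD fluid, 19.5 and 5.37 CPM in Mr1-/- PBS and 36.8 and 30.0 CPM in Mr1-/- PD fluid. PD fluid libraries were higher in both genotypes without overlap, and the interaction of -0.12 had an interval of -2.68 to 2.44. Intervals for Msln (-3.10 to 3.48) and Upk3b (-2.42 to 3.96) were as wide, so these genes give no direction. Krt8, a keratin of simple epithelia, was at 585 CPM in Mr1+/+ PBS library 3 and at 1.97 to 11.0 CPM in all others.

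B cell, plasma cell and T cell genes lay mostly on the positive side. Of 14 B cell markers 13 had a positive interaction, 10 at an unadjusted p under 0.05 (71.4%, against 6.08% of all genes on that side), with a median of 1.04, and none passed adjustment. In Mr1+/+ 13 of the 14 fell (6.37% of all genes did), with a median of -1.03, and the median in Mr1-/- was 0.08. The list summed to 2929 to 4536 CPM in Mr1+/+ PBS, 1721 to 1935 CPM in Mr1+/+ PD fluid, 3249.6 and 3442 CPM in Mr1-/- PBS and 3507 and 3509 CPM in Mr1-/- PD fluid. The Mr1+/+ PD fluid libraries were the lowest, and in Mr1-/- the PD fluid libraries lay just above the PBS libraries. When single libraries were left out the count was 7 to 13, the highest of these without Mr1+/+ PBS library 3. Cd22, an inhibitory receptor of B cells, was at 554, 567 and 341 CPM in Mr1+/+ PBS, 196, 194 and 161 CPM in Mr1+/+ PD fluid, 379 and 372 CPM in Mr1-/- PBS and 419 and 412 CPM in Mr1-/- PD fluid, an interaction of 1.45 ± 0.36 (SE). Where the fat cell list was highest, in Mr1+/+ PD fluid, the B cell list was lowest, and CPM are shares of each library, so the part of one in the other was not tested.

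Plasma cell genes were positive for 10 of 11, with 5 at an unadjusted p under 0.05 and a median of 0.89. That count was 2 without any 1 of the Mr1+/+ PD fluid libraries or without Mr1-/- PBS library 1, and 3 without Mr1+/+ PBS library 1 or without Mr1-/- PBS library 2 or Mr1-/- PD fluid library 2. Derl3, of the secretory machinery of plasma cells, was at 22.6, 21.1 and 18.9 CPM in Mr1+/+ PBS, 6.36, 10.5 and 12.1 CPM in Mr1+/+ PD fluid, 10.7 and 9.11 CPM in Mr1-/- PBS and 16.8 and 15.9 CPM in Mr1-/- PD fluid. It crossed over without overlap, with an interaction of 1.81 ± 0.46 (SE). The 17 T cell markers were all positive, with a median of 0.71. Of these, 6 were at an unadjusted p under 0.05, a count that was 0 without Mr1+/+ PD fluid library 2 or 3, 1 without either Mr1-/- PBS library and 12 without Mr1+/+ PBS library 3. Cd28, a costimulatory receptor, was at 0.89 and Bcl11b, a T cell transcription factor, at 0.68, and both fell in Mr1+/+. Cd3e, of the T cell receptor complex, was at 0.74 with an interval of -0.31 to 1.80. NK and cytotoxic genes were less one-sided, with 7 positive and 4 negative, none at an unadjusted p under 0.05 and a median of 0.12. That median was -0.07 without Mr1+/+ PD fluid library 2 and 0.43 without Mr1+/+ PD fluid library 1.

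Genes linked to MAIT and other innate-like T cells were 9 positive and 12 negative of 21, with 3 positive at an unadjusted p under 0.05 and a median of -0.05, which was 0.09 without Mr1+/+ PBS library 3. Zbtb16 encodes PLZF, a transcription factor of these cells, and is also in the list of glucocorticoid response genes described below. Its level is therefore not read as a measure of these cells. Zbtb16 was at 12.4, 13.2 and 33.1 CPM in Mr1+/+ PBS, 43.2, 214 and 146 CPM in Mr1+/+ PD fluid, 46.3 and 70.0 CPM in Mr1-/- PBS and 48.7 and 45.0 CPM in Mr1-/- PD fluid. Levels were thus not lower in Mr1-/- PBS than in Mr1+/+ PBS, and the interaction of -2.87 had an interval of -6.44 to 0.70. Ccr6, a chemokine receptor of IL-17-producing T cells and of B cells, was at 1.42 with an interval of 0.53 to 2.31. The other genes at an unadjusted p under 0.05 were Blk (0.98), which B cells also express, and Slamf6 (1.20).

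**Figure D4:**
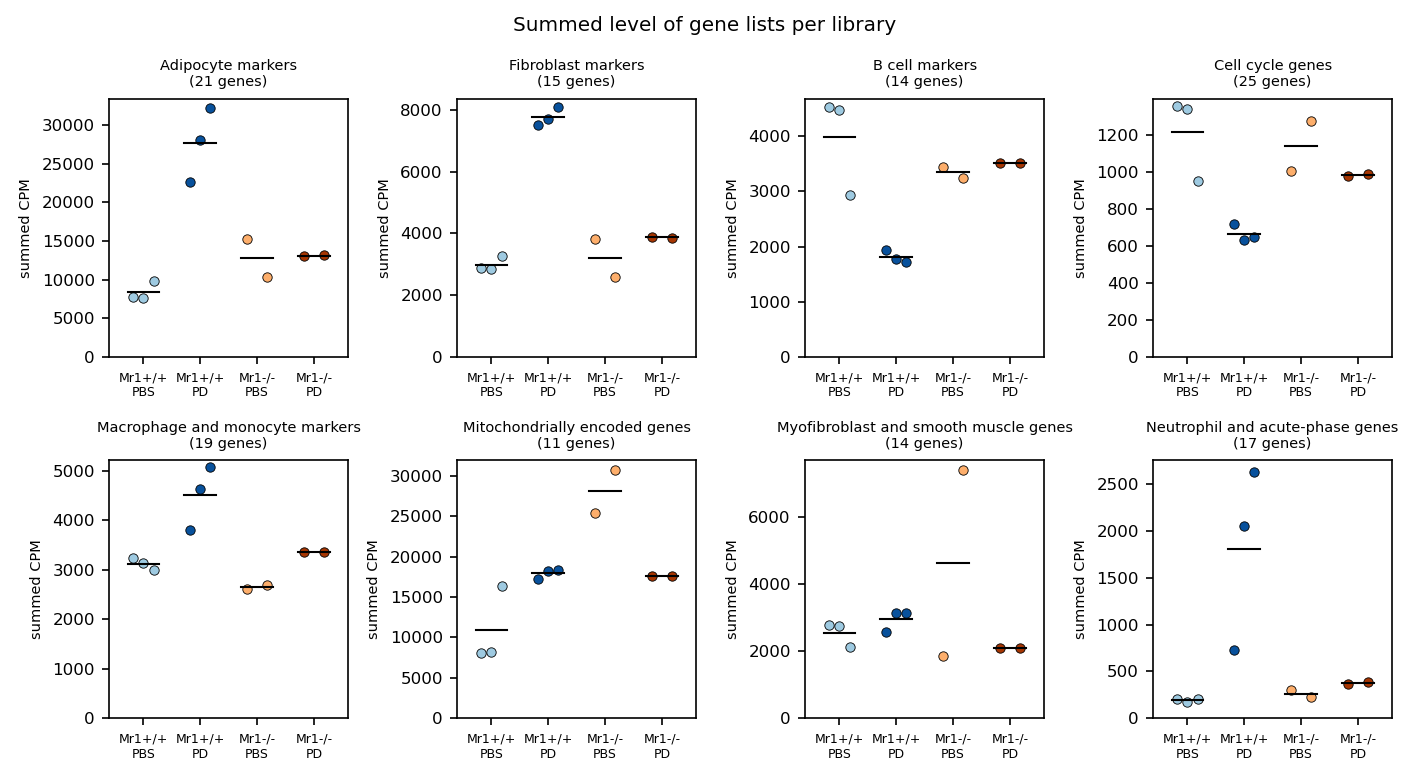
Summed level (y axis, CPM) of 8 gene lists in each library by group (x axis); points are libraries and bars are group means over libraries. Adipocyte and fibroblast lists are high in Mr1+/+ PD fluid only, B cell and cell cycle lists are low there only, macrophage markers are higher with PD fluid in both genotypes, and 1 Mr1-/- PBS library sets the smooth muscle list apart.

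Genes of cell division had a positive interaction in all 25 cases, 10 of them at an unadjusted p under 0.05, with a median of 0.78. In Mr1+/+ 15 of the 25 fell (6.37% of all genes did), with a median of -0.99, and the median in Mr1-/- was -0.20. The count at unadjusted p under 0.05 was 3 without Mr1-/- PBS library 1, 5 without Mr1+/+ PD fluid library 2 and 15 without Mr1+/+ PBS library 3. Top2a, the topoisomerase of dividing cells, was at 80.4, 78.0 and 67.5 CPM in Mr1+/+ PBS, 39.6, 31.3 and 28.8 CPM in Mr1+/+ PD fluid, 90.9 and 95.5 CPM in Mr1-/- PBS and 76.2 and 81.6 CPM in Mr1-/- PD fluid. PD fluid libraries were lower in both genotypes, and the interaction was 0.91 ± 0.28 (SE). Plk1, a mitotic kinase, was at 1.17 ± 0.36 (SE) and Cdc20, an activator of the anaphase-promoting complex, at 1.35 ± 0.44 (SE). Mki67 was at 1.10 with an interval of -0.40 to 2.61.

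Since all 25 values shared a sign, promoters of the 3 cell cycle genes with the smallest interaction p are shown for the elements known from cell cycle genes: the CCAAT box, bound by NF-Y, and the cell cycle homology region searched as TTTGAA. Both strands were searched (as CCAAT or ATTGG, and as TTTGAA or TTCAAA) in the 250 bases before each start in RefSeq on GRCm38.p6, the mm10 assembly, and the motifs can share a base where they adjoin. A CCAAT box was found in 20 of 20 cell cycle genes with a promoter in that table (25 were listed), in 4 of 10 B cell markers, in 3 of 14 adipocyte markers and in 34.5% of all 27025 promoters. TTTGAA was found in 7 of 20, 1 of 10, 0 of 14 and 16.3% in the same order. A match is a description of letters, not of binding. The sequences run 5′ to 3′ on the gene's strand with matches in capitals, for Top2a (chr11:99024190-99024439, minus strand, 6 CCAAT and 2 TTTGAA matches), Plk1 (chr7:122159185-122159434, plus strand, 1 and 0 matches) and Cdc20 (chr4:118437344-118437593, minus strand, 2 and 1 matches).
Top2a: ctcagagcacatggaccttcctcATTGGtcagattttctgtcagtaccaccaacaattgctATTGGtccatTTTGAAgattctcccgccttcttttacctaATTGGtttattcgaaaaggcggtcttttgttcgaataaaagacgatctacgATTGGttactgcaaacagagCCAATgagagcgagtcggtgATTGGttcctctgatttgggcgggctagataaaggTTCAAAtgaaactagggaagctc
Plk1: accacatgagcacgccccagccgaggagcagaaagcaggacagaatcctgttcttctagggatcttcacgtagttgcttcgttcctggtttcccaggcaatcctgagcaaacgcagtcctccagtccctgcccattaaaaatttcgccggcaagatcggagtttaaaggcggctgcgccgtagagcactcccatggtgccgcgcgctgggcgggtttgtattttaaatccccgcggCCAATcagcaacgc
Cdc20: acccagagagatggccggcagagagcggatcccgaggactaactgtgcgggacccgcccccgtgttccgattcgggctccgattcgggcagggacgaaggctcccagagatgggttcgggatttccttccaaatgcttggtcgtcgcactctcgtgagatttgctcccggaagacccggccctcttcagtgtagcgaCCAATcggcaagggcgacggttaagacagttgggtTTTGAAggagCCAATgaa

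Macrophage markers had mostly positive changes with PD fluid in both genotypes, for 18 of 19 in Mr1-/- and 17 of 19 in Mr1+/+. In Mr1+/+ 8 of the 19 rose, against 8.49% of all genes. The median changes were 0.84 in Mr1+/+ and 0.48 in Mr1-/-, the median interaction was -0.29 and none of the 19 was at an unadjusted p under 0.05. Without Mr1+/+ PBS library 3, 5 were, all negative, and without Mr1-/- PBS library 1, 2 were. The median was -0.43 without Mr1-/- PBS library 1, -0.14 without Mr1+/+ PD fluid library 3 and -0.09 without Mr1-/- PBS library 2. Cd163, the scavenger receptor of resident macrophages, was at 29.2, 27.7 and 41.9 CPM in Mr1+/+ PBS, 105, 130.0 and 107 CPM in Mr1+/+ PD fluid, 26.0 and 19.9 CPM in Mr1-/- PBS and 74.1 and 76.1 CPM in Mr1-/- PD fluid. The PD fluid libraries were higher in both genotypes without overlap, by 1.69 ± 0.22 (SE) in Mr1+/+ and 1.71 ± 0.27 (SE) in Mr1-/-. The interaction was 0.02, and its 95% confidence interval of -0.77 to 0.80 gives the size of difference these data allow. Cd68, a lysosomal protein of macrophages, had an interaction of 0.04 ± 0.42 (SE).

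Fbln1, which encodes the matrix protein fibulin-1 and was chosen after its values were seen, also had estimated changes of like size in both genotypes. It was at 57.7, 60.2 and 65.5 CPM in Mr1+/+ PBS, 167, 194 and 185 CPM in Mr1+/+ PD fluid, 42.8 and 33.4 CPM in Mr1-/- PBS and 107 and 107 CPM in Mr1-/- PD fluid. The changes were 1.54 in Mr1+/+ and 1.49 in Mr1-/-, and the Fbln1 interaction was -0.05 with an interval of -0.64 to 0.54.

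Neutrophil and acute-phase genes had a median interaction of -2.19 over 17 tested genes, 12 negative, with 5 at an unadjusted p under 0.05. Hp, the haemoglobin scavenger haptoglobin, which fat also makes, was at 125, 104 and 125 CPM in Mr1+/+ PBS, 593, 1645 and 2077 CPM in Mr1+/+ PD fluid, 222 and 173 CPM in Mr1-/- PBS and 231 and 236 CPM in Mr1-/- PD fluid. It rose in Mr1+/+ by 3.58 (adjusted p = 0.0173, edgeR), with an interaction of -3.34 ± 0.88 (SE). S100a9, a calcium-binding protein of neutrophils, was at 2.80, 10.2 and 15.6 CPM in Mr1+/+ PD fluid and at 0.194 to 0.878 CPM in the other 7 libraries. The 3 Mr1+/+ PD fluid libraries differed among themselves, and the count was 9 without library 1 and 3 without library 2 or 3 of that group. It was also 3 without Mr1+/+ PBS library 3 or Mr1-/- PBS library 1 and 2 without Mr1-/- PBS library 2, while the list's median was -1.20 without Mr1-/- PBS library 2 and -1.63 without Mr1-/- PBS library 1.

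Inflammatory chemokines and cytokines did not share a direction: 9 of 20 were positive and 11 negative, with a median of -0.20 that was 0.08 without Mr1+/+ PBS library 3. At an unadjusted p under 0.05 were Ccl2 and Ccl7, which draw monocytes, on the positive side and Cxcl9, an interferon-induced chemokine, at -1.14 on the negative side. Neither positive gene was at that level without Mr1+/+ PD fluid library 2 or without Mr1-/- PBS library 1, and Ccl2 alone was without Mr1+/+ PBS library 1. Ccl2 was at 3.13, 3.15 and 1.41 CPM in Mr1+/+ PBS, 3.55, 2.23 and 3.64 CPM in Mr1+/+ PD fluid, 2.39 and 4.49 CPM in Mr1-/- PBS and 16.1 and 17.1 CPM in Mr1-/- PD fluid. Only the Mr1-/- PD fluid libraries, which count as 1 sample, were high. The interaction was 1.83 with a 95% confidence interval of 0.16 to 3.50 and an edgeR adjusted p of 0.35. Ccl7 had the same shape, at 7.02 and 7.83 CPM in Mr1-/- PD fluid and at 0.908 to 2.52 CPM in the other 8 libraries, an interaction of 1.70. The cytokines Il6 (0.33, interval -2.81 to 3.47) and Tnf (-0.49, interval -2.02 to 1.03) gave no direction.

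Transcripts of the mitochondrial genome had a negative interaction in all 11 tested genes, 6 of them at an unadjusted p under 0.05, with a median of -1.32. The count was 2 without Mr1-/- PBS library 2. Mr1-/- PBS was the high group: the list summed to 25429 and 30746 CPM there, against 8041 to 16346 CPM in Mr1+/+ PBS, 17257 to 18308 CPM in Mr1+/+ PD fluid and 17541 and 17599 CPM in Mr1-/- PD fluid. mt-Nd2, a subunit of complex I, was at 586, 578 and 788 CPM in Mr1+/+ PBS, 1046, 976 and 993 CPM in Mr1+/+ PD fluid, 1386 and 2045 CPM in Mr1-/- PBS and 997 and 981 CPM in Mr1-/- PD fluid. The genotypes met under PD fluid, with a median genotype difference of -0.02 there and 1.25 under PBS. Heat shock genes were also negative in all 14 cases, 6 at an unadjusted p under 0.05, with a median of -0.80. That count was 2 without Mr1+/+ PD fluid library 2 or 3 or Mr1-/- PBS library 2, and 11 without Mr1-/- PBS library 1. Hspa1a, the inducible HSP70, was at 3.22 and 14.2 CPM in the 2 Mr1-/- PBS libraries, and the list's median was -0.48 without Mr1-/- PBS library 2 and -1.18 without Mr1-/- PBS library 1. The part of these transcripts, as shares of each library, in other values was not tested.

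Of 29 genes of fibrosis, inflammation, mesothelium, fat, lymphocytes and MAIT biology that were listed by name, 10 had a 95% confidence interval that excluded 0, as did 13.2% of all tested genes. The 29 were listed with earlier results of these data known. These were Hp, Ccn2, Acta2, Alb, Adipoq and Dgat2 below 0, and Ccl2, Pax5, Smad7 and Ccr6 above 0. The intervals are per gene and not adjusted for the number of genes, and none of the 29 passed the adjusted test. Alb was at 0.188 to 2.18 CPM in Mr1+/+, so its fold rests on low counts in that genotype.

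**Figure D5:**
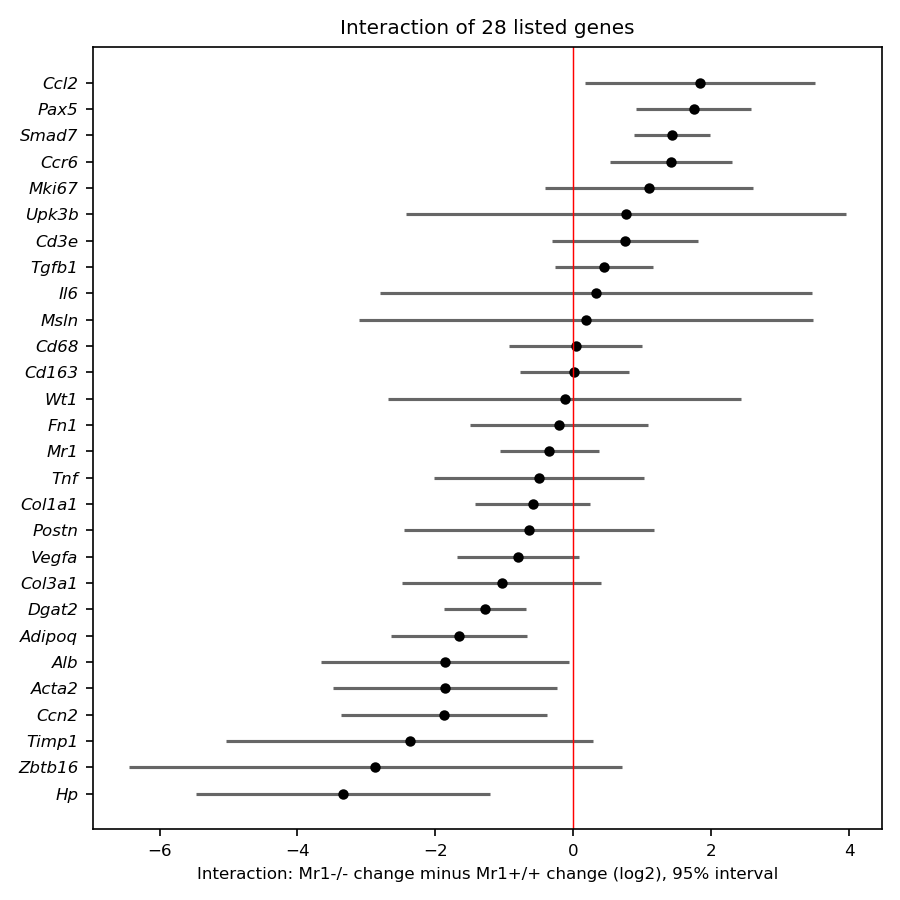
Interaction of 28 of the 29 listed genes (x axis, log2; points are estimates and lines 95% confidence intervals from the 8-sample fit), ordered by value, with the red line at 0. The interval excludes 0 for 6 genes below it and 4 above it, runs from -0.77 to 0.80 for Cd163 and is several log2 units wide for Il6, Msln, Upk3b, Wt1 and Zbtb16.

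The genes with the largest opposite changes in the 2 genotypes were intestinal, and their size rests on high values in Mr1+/+ PBS library 3 and on 0 counts in Mr1-/- PBS. Clca1, Lypd8, Tspan1, Reg4, Elf3 and Clca3b were at 59.9 to 1229.9 CPM in that library. They had 0 counts in both Mr1-/- PBS libraries and at most 9.70 CPM in any other library. A fitted fold against 0 counts has no meaning here and none is given. Leaving out Mr1+/+ PBS library 3 left the sign of Clca1 and Lypd8 positive, with an edgeR adjusted p of 0.0717 for each.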

How the data were processed

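The deposited values are raw, whole-number read counts for each gene symbol. The submitters' processing notes name mm10 as the build; which aligner, counter and annotation the authors used is not given in the sources used here. Poly-A RNA was, per the labels' protocols, reverse-transcribed with random primers, with no strand-marking step or molecular identifier named, so overlapping antisense genes cannot be told apart and near-identical paralogs are uncertain. The table's 21899 rows became 21877 symbols after rows sharing a symbol were summed, and 97.0% matched GENCODE M21, which supplied coordinates.

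The near-identical library pairs were summed, which left 8 samples. Genes were filtered with filterByExpr, scaled by TMM and fitted with edgeR 4.0.16 (R 4.3.3), by robust quasi-likelihood F tests on 4 group means with 4 residual degrees of freedom and Benjamini-Hochberg adjustment over 15385 genes. Called means an adjusted p under 0.05. Standard errors come from the log2 change and its F statistic, and intervals from the t distribution with the shrunken degrees of freedom. CPM use TMM library sizes. The fit was tested on simulated data. In simulated counts with interactions of known size, 23.6% of the 72 calls were unchanged genes. DESeq2 1.42.0, RLE scaling, no filter, 10 separate libraries, a replicate block and leaving out each library were alternatives. Leaving out 1 library of a near-identical pair kept the other as that sample, so such a run changed the data little. The single Mr1-/- PD fluid sample, on which every interaction rests, was thus never left out.

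Named genes were the 29 listed, up to 12 with the smallest interaction p on each side (mean CPM of at least 5, no predicted or clone-based symbol), up to 3 per list described, and up to 6 whose libraries did not overlap and moved in opposite directions. The members and lists were chosen with earlier results of these data known, so lists are described by counts and medians, with no test of the list. A few genes named by this rule are left out.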

Additional observations from a re-analysis of the deposited data

How the results depend on the processing

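Calls of the genotype by PD fluid interaction were 0 with RLE scaling and with no filter. They were 488 with DESeq2, 1490 with 10 separate libraries and 1915 with a replicate block on the 10 libraries (946 positive, 969 negative). Leaving out single libraries gave 0 to 1. The 1 call was Slc15a2, an oligopeptide transporter, at 6.70 (edgeR adjusted p = 0.0026) without Mr1-/- PBS library 1, which leaves library 2 as the group; Slc15a2 was at 27.5 and 0.612 CPM in these libraries. Unadjusted counts ran from 1321 without Mr1+/+ PD fluid library 3 to 2831 without Mr1+/+ PBS library 3. Calls for PD fluid in Mr1+/+ were 3845 with DESeq2, 5549 with 10 libraries, 5537 with the block and 0 to 2751 leaving out single libraries. Calls for PD fluid in Mr1-/- were 11 with DESeq2, 2 with 10 libraries and 0 to 1 leaving out single libraries. Deviations of same-numbered libraries of different groups from their group means had correlations of -0.18 to 0.17. In a group of 2 libraries these deviations mirror each other, so the correlations cannot settle whether the numbers pair libraries. The sources used here give no such pairing, so the block is a fit to numbers alone.

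Among named genes, the sign reversed for the Cd163 interaction (-0.078 with 10 libraries, -0.10 with the replicate block) and the Wt1 interaction (0.21 with the block). Leaving out single libraries reversed Cd163 (-0.29 to 0.22), Cd68 (-0.19 to 0.20), Fn1 (-0.44 to 0.13), Il6 (-0.25 to 1.30), Msln (-0.32 to 1.06) and Wt1 (-0.77 to 1.08). The cause was not tested. With DESeq2, 10 libraries or the block, 199 gene values passed that had not. The Mr1 difference was -3.61 to -3.46 leaving out single libraries. The median interaction over all genes was 0.01 under each scaling. A group of 1 sample limits what depth could resolve.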

Other observations

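All 33 nuclear genes of the respiratory chain had a negative interaction, with a median of -0.51 and 4 at an unadjusted p under 0.05, among them Ndufa4 at -1.31. That count was 11 without Mr1+/+ PD fluid library 1, 2 without Mr1+/+ PD fluid library 2 or 3 and 1 without Mr1-/- PBS library 2. Antioxidant enzymes were negative for 13 of 20, 6 at an unadjusted p under 0.05, with extracellular superoxide dismutase Sod3 at -1.33 beside Gpx3. Aqp7, the glycerol channel of fat cells, was at -1.85 ± 0.47 (SE), within a list of 12 osmotic stress and water channel genes that had a median of -0.18 (-0.54 without Mr1+/+ PBS library 3). Glucocorticoid response genes were negative for 9 of 14, 2 at an unadjusted p under 0.05, with a median of -0.78. Those 2 were Pdk4, a brake on glucose oxidation, at -1.60 ± 0.47 (SE) and Angptl4, an inhibitor of lipoprotein lipase, at -2.19 ± 0.74 (SE). Without Mr1+/+ PBS library 3 the count was 7 and the median -1.30.

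Immediate early genes, which respond within minutes to stimulation, were positive for 18 of 21, 4 at an unadjusted p under 0.05, with a median of 0.52. That count was 7 without Mr1+/+ PD fluid library 1 and 3 without library 2 or 3 of that group. The median was 0.40 without Mr1-/- PBS library 2. Fosb was at 14.1 and 13.3 CPM in Mr1-/- PD fluid and at 2.86 to 7.99 CPM in the other 8 libraries. Atf3, a stress-induced factor, was at 30.4 and 26.9 CPM in Mr1-/- PD fluid and at 6.33 to 19.5 CPM in the others. MHC class II presentation genes were positive for 10 of 11, with H2-Ob, a class II-like chain of B cells, at 1.37 ± 0.33 (SE). Type I interferon response genes were positive for 14 of 18, none at an unadjusted p under 0.05, and the 2 Mr1-/- PBS libraries summed to 617 and 1658 CPM for that list. Without Mr1-/- PBS library 2 the median went from 0.54 to 1.71 and 8 were at an unadjusted p under 0.05, while without Mr1-/- PBS library 1 the list had 9 positive and 9 negative values and a median of -0.04. Without Mr1+/+ PBS library 3 the median was 0.86. Cytosolic ribosomal protein genes were positive for 31 of 34 with a median of 0.24, which was 0.11 without Mr1+/+ PD fluid library 2 and 0.40 without Mr1+/+ PBS library 3.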
